A study of Mus musculus with 28 samples.

Results

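Macrophages differentiated in culture from the bone marrow of wild-type mice were compared by whether they had engulfed apoptotic regulatory T cells (Treg cells) under IFN-γ. The comparison held 8 of the series' 28 libraries, chosen by their labels: 4 of sorted Treg-phagocytic macrophages and 4 of sorted non-phagocytic macrophages, all cultured for 48 h with IFN-γ at 50 ng/mL. Per the series' description, the T cells were made apoptotic with ATP/NAD+ and carried a fluorescent antibody against CD4, the label by which macrophages were sorted once co-culture had ended. The antibody carried Ax647 in 2 of the Treg-phagocytic libraries and BV421 in the other 2, and both dyes were pooled. Titles and library names give opposite dyes for each of these 4 libraries, so they are named here by title and no direction between dyes was read. The labels do not say whether the non-phagocytic cells had been offered Treg cells or conventional CD4 T cells (Tconv cells), nor that replicates came from separate animals, so p-values measure the spread between these samples, which may be technical. Libraries of 4 Tconv-phagocytic samples under IFN-γ, and of 4 Treg-phagocytic and 4 non-phagocytic samples under IL-10 (50 ng/mL, 48 h), were used only to test whether a change differed.

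Engulfment of dying cells, or efferocytosis, proceeds through receptors and bridging proteins that recognise phosphatidylserine on the dying cell, followed by digestion in lysosomes and export of the cholesterol and lipid that the meal brings in. IFN-γ acts on macrophages through its receptor and JAK kinases, which lead to transcription at GAS sequences in promoters and to the induction of transcription factors such as IRF1. The genes switched on include guanylate-binding proteins and immunity-related GTPases, which attack pathogen vacuoles, and the class I and class II MHC genes of antigen presentation.

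The values were TPM (reads divided by transcript length, scaled to the same total in each library), and differences are log2 fold changes of scaled TPM plus 1, Treg-phagocytic minus non-phagocytic, given with the standard error from limma (4 libraries against 4). Because 1 is added, fold changes of genes at a few TPM are understated. Of 11891 genes tested, 1078 passed an adjusted p of 0.05 (9.07%), 326 of them higher (2.74%) and 752 lower (6.32%) in Treg-phagocytic macrophages; in what follows, "rose" and "fell" are used of such genes. The falls were larger: their median was -0.77, against 0.30 for the rises, and of 261 genes with a change of at least 1, 241 fell and 20 rose. The median over all genes tested was 0.03. Using TPM with no further scaling changed the share of higher calls from 30.2% to 17.1%. The count of calls was 620 without non-phagocytic library 4, 630 without library 2 and 651 without library 1. Relative to the deepest of the 8, depth read from steps in the TPM values was 83.1% to 100% in the non-phagocytic libraries and 90.3%, 51.5%, 83.2% and 73.0% in the Treg-phagocytic libraries Ax647-1, Ax647-2, BV421-1 and BV421-2, and between 14148 and 15723 genes had a value above 0. Values of the 4 libraries of a group are given below in the order non-phagocytic 1 to 4 and Ax647-1, Ax647-2, BV421-1, BV421-2.

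**Figure D1:**
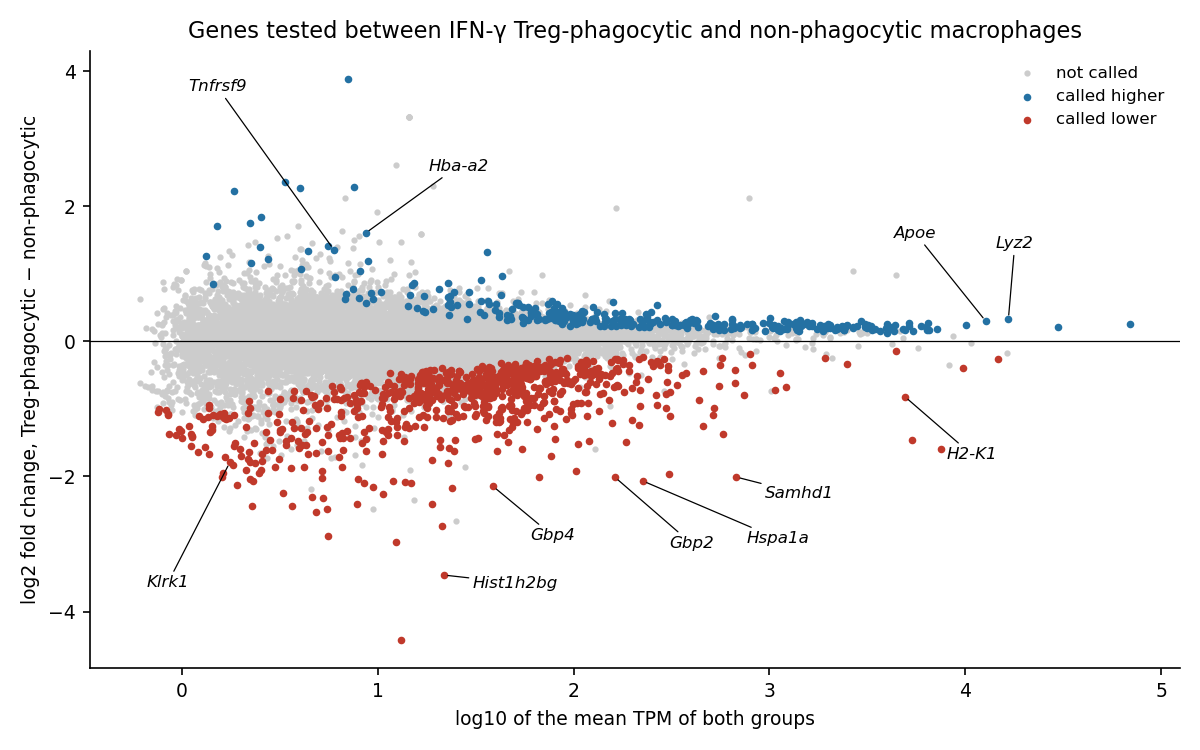
Log2 fold change (Treg-phagocytic minus non-phagocytic, IFN-γ) of 11891 genes against the log10 of their mean TPM. Each point is a gene, coloured where it passed an adjusted p of 0.05; the 752 called lower reach further from 0 than the 326 called higher, most of which lie close above 0 at high TPM.

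Some transcripts of the IFN-γ signalling pathway were lower in macrophages that had taken up Treg cells. Of 20 genes of IFN-γ signalling and its feedback that were tested, 8 fell and 0 rose, with a median log2 fold change of -0.28. Stat2, a transcription factor of type I interferon signalling, was at 69.2, 80.5, 60.4 and 66.5 TPM in the non-phagocytic libraries and 18.7, 26.2, 21.7 and 25.5 TPM in the Treg-phagocytic libraries (log2 fold change -1.50 ± 0.14, adjusted p = 0.000339). Irf1, an induced transcription factor, was at 213, 205, 189 and 189.6 TPM in the non-phagocytic libraries and 88.5, 115, 96.9 and 119 TPM in the Treg-phagocytic libraries (log2 fold change -0.87 ± 0.11, adjusted p = 0.00143). In both of these genes all 4 Treg-phagocytic libraries lay below all 4 non-phagocytic libraries, as did 1361 of all genes tested (11.4%). Stat3, which transmits IL-6 and IL-10 signals, fell as well, at 79.95 ± 9.998 TPM in non-phagocytic and 39.2 ± 3.24 TPM in Treg-phagocytic libraries (SD, n = 4; log2 fold change -0.95 ± 0.11, adjusted p = 0.000883). Usp18 (-0.81), Irf2 (-0.75), Pias1 (-0.63) and Irf8 (-0.27) were among the other members that fell. The receptor subunit gene Ifngr1 (0.15, adjusted p = 0.335) and the feedback inhibitor Socs1 (0.06, adjusted p = 0.91) did not pass the test. Socs1 was at 3.98, 4.18, 6.98 and 3.82 TPM in the non-phagocytic libraries and 5.80, 3.58, 6.50 and 3.48 TPM in the Treg-phagocytic libraries, so its groups overlapped at low levels.

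The guanylate-binding proteins, GTPases that assemble on pathogen vacuoles, had the lowest median of the interferon lists. All 11 measured members passed the filter, 6 fell, 0 rose, and all 11 fold changes were negative with a median of -0.83; summed over the list, 398 to 466 TPM in non-phagocytic libraries stood against 126 to 148 TPM after Treg uptake. Gbp4 (GRCm38 chr5:105115767-105139586) was at 67.6, 67.8, 57.9 and 63.4 TPM in the non-phagocytic libraries and 11.1, 13.01, 15.3 and 13.6 TPM in the Treg-phagocytic libraries (log2 fold change -2.15 ± 0.12, adjusted p = 3.58e-05). Gbp2 (chr3:142620602-142638008) was at 279, 281, 221 and 268 TPM in the non-phagocytic libraries and 47.9, 73.5, 54.1 and 75.3 TPM in the Treg-phagocytic libraries (log2 fold change -2.01 ± 0.16, adjusted p = 0.000144). The highest Treg-phagocytic library of each gene was thus far below the lowest non-phagocytic one. Gbp9 was at 14.5, 24.3, 22.5 and 19.5 TPM in the non-phagocytic libraries and 8.18, 7.85, 8.09 and 5.74 TPM in the Treg-phagocytic libraries (log2 fold change -1.26 ± 0.18, adjusted p = 0.00244), and Gbp8 also fell (log2 fold change -0.83 ± 0.13, adjusted p = 0.00317). Members of this family have near-identical copies, and reads shared between them may have been split in the quantification. Among the immunity-related GTPases, which also act at pathogen vacuoles, 2 of 8 members tested fell and 0 rose. Irgm1 was at 63.2, 62.4, 63.5 and 62.98 TPM in the non-phagocytic libraries and 31.9, 32.6, 32.5 and 34.8 TPM in the Treg-phagocytic libraries (log2 fold change -0.86 ± 0.08, adjusted p = 0.00032), with little spread in either group. Iigp1 (-0.67, adjusted p = 0.0408) passed the test only with all 8 libraries or without Ax647-1: without any other library its adjusted p was 0.0665 to 0.109.

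Promoter letters of these genes are shown because the lists are defined by a response that runs through GAS sequences and interferon regulatory factors. GAS and ISRE motifs were searched on both strands in RefSeq windows (GRCm38.p6) of 300 bases, from 250 before to 50 after the start: the GAS letters TTCNNNGAA, and the ISRE core, which is GAAA, any 2 bases and GAAA. They overlap in none of the stretches printed. Windows were found for 21 of 31 members of the 5 IFN-γ response lists that fell (signalling, guanylate-binding proteins, immunity-related GTPases, class II and class I MHC) and for 36 of 45 other members tested. The ISRE letters were in 7 of the 21 (33.3%), in 12 of the 36 (33.3%) and in 3.99% of 27025 genes with a window. The GAS letters were in 3 (14.3%), 10 (27.8%) and 9.55%. Members that fell did not hold either motif at a higher share than the other members tested, which include Ctss and Canx, 2 genes that rose. Printed are the 4 members with the largest falls among those with a match and at least 150 bases upstream of the annotated gene, followed by Gbp7 (-0.15, adjusted p = 0.726), a member with both motifs that was not called. They read 5′ to 3′ on the gene's strand, with matched letters in capitals, and the Gbp2 stretch is shorter because it stops 20 bases into the annotated gene:
Gbp2, chr3:142620413-142620621 (+ strand): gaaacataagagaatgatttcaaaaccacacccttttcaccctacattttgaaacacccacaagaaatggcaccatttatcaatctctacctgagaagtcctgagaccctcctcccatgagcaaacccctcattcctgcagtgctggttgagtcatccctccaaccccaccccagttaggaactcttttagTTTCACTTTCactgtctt
Stat2, chr10:128270248-128270497 (+ strand): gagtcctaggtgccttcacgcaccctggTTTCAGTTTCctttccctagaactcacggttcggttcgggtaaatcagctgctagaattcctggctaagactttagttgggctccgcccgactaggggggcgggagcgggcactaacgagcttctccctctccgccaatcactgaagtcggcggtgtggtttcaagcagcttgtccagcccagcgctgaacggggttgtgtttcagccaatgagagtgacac
Irf1, chr11:53769764-53770013 (+ strand): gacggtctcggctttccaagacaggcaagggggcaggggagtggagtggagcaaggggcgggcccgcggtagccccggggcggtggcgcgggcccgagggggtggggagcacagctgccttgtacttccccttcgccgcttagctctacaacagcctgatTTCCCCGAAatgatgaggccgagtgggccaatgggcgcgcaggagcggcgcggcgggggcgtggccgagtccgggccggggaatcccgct
Irf2, chr8:46739495-46739744 (+ strand): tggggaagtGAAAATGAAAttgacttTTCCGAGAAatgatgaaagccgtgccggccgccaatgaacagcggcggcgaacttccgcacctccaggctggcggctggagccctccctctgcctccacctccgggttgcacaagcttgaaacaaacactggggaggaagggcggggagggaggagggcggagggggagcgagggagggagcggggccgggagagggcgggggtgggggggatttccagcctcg
Gbp7, chr3:142530086-142530335 (+ strand): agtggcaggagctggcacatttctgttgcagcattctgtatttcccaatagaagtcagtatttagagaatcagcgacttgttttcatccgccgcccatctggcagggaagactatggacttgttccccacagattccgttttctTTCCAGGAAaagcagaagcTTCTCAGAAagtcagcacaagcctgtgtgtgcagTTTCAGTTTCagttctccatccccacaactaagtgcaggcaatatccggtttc
In Gbp2 and Stat2 the capitals mark the ISRE core on the opposite strand, in Irf1 they mark GAS, and in Irf2 an ISRE core precedes a GAS match. A match describes letters only and is no evidence of binding.

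**Figure D2:**
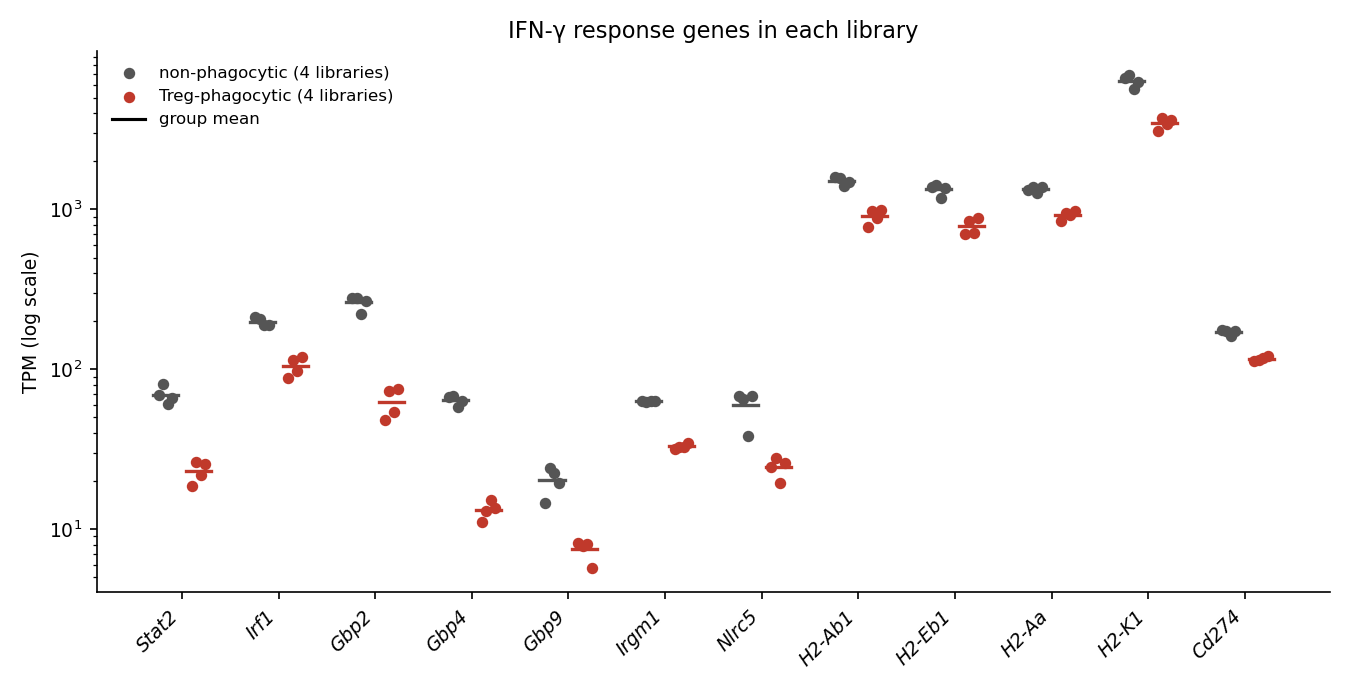
TPM of 12 IFN-γ response genes in each library on a log axis; points are libraries, lines are group means. The 12 are a selection, and members whose groups overlapped, such as Ciita and Socs1, are not shown. For every gene shown, the 4 Treg-phagocytic points lie below the 4 non-phagocytic points, as in 11.4% of all genes tested. Such separation was found in 7 of 20 signalling genes, 8 of 11 guanylate-binding proteins and 2 of 8 immunity-related GTPases tested. It was found in 9 of 15 class II and 11 of 22 class I members.

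Class II MHC genes, which present extracellular antigen to CD4 T cells, were lower in part after Treg uptake. Of 15 members tested, 8 fell and 1 rose, with a median of -0.51. The chain genes H2-Ab1, at 1586, 1585, 1396 and 1479 TPM in the non-phagocytic libraries and 781, 982, 880.3 and 998 TPM in the Treg-phagocytic libraries (log2 fold change -0.68 ± 0.09, adjusted p = 0.00206), and H2-Eb1, at 1340.1 ± 109.9 TPM in non-phagocytic and 788 ± 92.5 TPM in Treg-phagocytic libraries (SD, n = 4; log2 fold change -0.71 ± 0.10, adjusted p = 0.00247), did not overlap between groups. H2-Aa fell by less (log2 fold change -0.47 ± 0.06, adjusted p = 0.00196), and the peptide loading genes H2-DMa (-0.66) and H2-DMb1 (-0.51) fell too. The member that rose was Ctss, the protease that trims the invariant chain (0.21, adjusted p = 0.00268). Ciita, the class II transactivator, was at 9.13, 8.76, 4.74 and 7.72 TPM in the non-phagocytic libraries and 1.82, 3.40, 4.83 and 2.97 TPM in the Treg-phagocytic libraries, with 1 Treg-phagocytic library above the lowest non-phagocytic one, and did not pass the test (log2 fold change -0.98 ± 0.28, adjusted p = 0.057). The invariant chain gene Cd74 (-0.34, adjusted p = 0.0206), H2-Oa (-0.92, adjusted p = 0.0181) and H2-Ob (-0.87, adjusted p = 0.0262) fell with all libraries. Their calls rested on single libraries: Cd74 was at an adjusted p of 0.0614, 0.0589, 0.0608 and 0.0532 without non-phagocytic libraries 1, 2 and 4 and BV421-1, H2-Oa at 0.0601 and 0.0638 without non-phagocytic 2 and 4, and H2-Ob at 0.0706, 0.066 and 0.0768 without non-phagocytic 1, 2 and 4. The count of members that fell was 5 without non-phagocytic library 2 or 4.

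Class I MHC and immunoproteasome genes changed in part. Of 22 members tested, 7 fell and 1 rose, and the list's median was -0.10. Nlrc5, the class I transactivator, was at 68.3, 65.4, 38.3 and 67.9 TPM in the non-phagocytic libraries and 24.5, 27.7, 19.5 and 25.8 TPM in the Treg-phagocytic libraries (log2 fold change -1.18 ± 0.20, adjusted p = 0.00577), with non-phagocytic library 3 well below the other 3 of its group. H2-K1, a classical class I heavy chain, was at 6606, 6904, 5673 and 6235 TPM in the non-phagocytic libraries and 3077, 3717, 3448 and 3626 TPM in the Treg-phagocytic libraries (log2 fold change -0.82 ± 0.08, adjusted p = 0.000447), and H2-Q4 fell similarly (log2 fold change -0.75 ± 0.09, adjusted p = 0.00124). Tap1, the peptide transporter, fell by less (log2 fold change -0.44 ± 0.07, adjusted p = 0.00387). H2 genes share near-identical sequence, so the split of reads between them is uncertain. The member that rose was the chaperone Canx (0.28, adjusted p = 0.0227), which was not called without non-phagocytic libraries 1, 2 or 4, Ax647-2 or BV421-2. B2m, the common light chain of class I, did not pass the test (-0.10, adjusted p = 0.114). The checkpoint ligand Cd274 (PD-L1) fell and was at 176, 175, 162 and 173 TPM in the non-phagocytic libraries and 113, 115, 118 and 122 TPM in the Treg-phagocytic libraries (log2 fold change -0.49 ± 0.07, adjusted p = 0.00184).

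Few antiviral genes of the type I interferon response and few inflammatory mediators passed the test. Of 30 type I interferon genes tested, 2 fell and 0 rose (median -0.11): Herc6, an ISG15 ligase (log2 fold change -1.25 ± 0.18, adjusted p = 0.00264), and Oas3, an RNA sensor (log2 fold change -0.61 ± 0.12, adjusted p = 0.0136), the latter no longer called with 2 phagocytic libraries of either dye alone. The IFN-γ induced chemokine Cxcl9 was at 13.6, 17.2, 15.1 and 15.6 TPM in the non-phagocytic libraries and 7.31, 31.5, 12.4 and 6.72 TPM in the Treg-phagocytic libraries (-0.28, adjusted p = 0.72), with Ax647-2 above all others. Cxcl10 was at 5.88, 2.86, 7.87 and 3.02 against 7.10, 3.27, 2.02 and 5.61 TPM and did not pass the test either (-0.07, adjusted p = 0.936). Of the 12 chemokine ligands tested, 2 rose and 0 fell: Ccl9 (0.53, adjusted p = 0.0264) and Ccl6 (0.30, adjusted p = 0.0166), ligands for myeloid cells. Without non-phagocytic library 2 neither was called (adjusted p 0.061 for Ccl9 and 0.0529 for Ccl6), and Ccl9 was also lost without Ax647-1 (0.0657), BV421-1 (0.0596) or BV421-2 (0.0607). None of 8 inflammatory cytokines and enzymes tested was called, at a median of 0.01; Tnf was at 22.7, 12.6, 19.9 and 16.5 against 18.2, 18.99, 15.5 and 17.8 TPM and Il1b at 2.11, 2.32, 3.03 and 3.77 against 4.72, 3.53, 6.22 and 3.08 TPM. Nos2, the inducible nitric oxide synthase, was at 0.69, 1.36, 1.13 and 0.93 against 0.1, 0.29, 0.45 and 0.39 TPM and did not pass the filter, and Arg1 is listed at 0 in all 8 libraries. Il10 was at 2.51, 2.58, 1.89 and 3.66 against 1.74, 2.10, 2.27 and 1.43 TPM and was not called (-0.29, adjusted p = 0.491). Vegfa, a growth factor of the regulatory list, fell (log2 fold change -0.52 ± 0.06, adjusted p = 0.000846).

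Of 30 genes of apoptotic cell recognition and engulfment tested, 8 rose and 2 fell, with a median of 0.16. Itgav, the αv integrin that binds bridging proteins, was at 17.7, 21.3, 17.4 and 15.6 TPM in the non-phagocytic libraries and 32.04, 26.9, 25.3 and 26.7 TPM in the Treg-phagocytic libraries (log2 fold change 0.65 ± 0.12, adjusted p = 0.0108). Cd36, a scavenger receptor for oxidised lipid and dying cells, was at 147, 144, 159 and 168 TPM in the non-phagocytic libraries and 216, 186, 180.3 and 215 TPM in the Treg-phagocytic libraries (log2 fold change 0.42 ± 0.08, adjusted p = 0.0125). Both genes were higher in every Treg-phagocytic library than in any non-phagocytic one, as were 517 of all genes tested (4.35%). Other members that rose were Gas6 (0.32), the ligand of the TAM receptors, Trem2 (0.27), a lipid receptor, C1qc (0.25), Anxa1 (0.24), Cd300a (0.22) and Itgam (0.30, adjusted p = 0.0217). Cd300lf, which binds phosphatidylserine, fell, at 10.2 ± 2.40 TPM in non-phagocytic and 3.11 ± 1.31 TPM in Treg-phagocytic libraries (SD, n = 4; log2 fold change -1.43 ± 0.27, adjusted p = 0.00935). Mertk, the TAM receptor of resting macrophages, was at 20.4, 21.9, 21.5 and 22.2 TPM in the non-phagocytic libraries and 16.8, 13.1, 15.5 and 15.6 TPM in the Treg-phagocytic libraries and was called by a narrow margin (log2 fold change -0.42 ± 0.11, adjusted p = 0.0456), which it lost without any 1 of the 8 libraries (0.0646 to 0.121). Axl (-0.28, adjusted p = 0.249) and the bridging protein Mfge8 (0.11, adjusted p = 0.257) did not pass the test. Only 4 members rose without non-phagocytic library 2 or 3, and 5 without non-phagocytic library 4 or BV421-1; Itgam was not called without non-phagocytic libraries 2, 3 or 4, Ax647-1 or BV421-1. Itgav was lost with either dye alone, and Cd36 and Cd300lf with BV421 alone.

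Several abundant lipid handling and lysosomal transcripts rose. Of 25 genes of LXR signalling and cholesterol efflux, 6 rose and 2 fell (median 0.05). Apoe, the main lipid acceptor that macrophages secrete, was at 11660.5, 11614, 11692 and 11574 TPM in the non-phagocytic libraries and 13678, 13884, 14022 and 13529 TPM in the Treg-phagocytic libraries (log2 fold change 0.30 ± 0.03, adjusted p = 0.000191), with all 4 libraries of one group above the other. Fabp4, a fatty acid carrier, rose (log2 fold change 0.34 ± 0.06, adjusted p = 0.0086), as did Pltp (0.25), Fabp5 (0.23), Lpl (0.22) and the lipid droplet protein Plin2 (0.26, adjusted p = 0.0199). Plin2 was not called without non-phagocytic library 2 (0.0623) or 4 (0.0634). The cholesterol exporter Abca1 was at 12.2, 12.2, 12.2 and 15.1 against 21.6, 12.7, 15.03 and 12.4 TPM and was not called (0.26, adjusted p = 0.41). Of 24 cholesterol synthesis genes none was called. In the lysosome list, 9 of 48 rose and 2 fell (median 0.05). Ctsd, an aspartic protease, was at 4847, 4613, 4792 and 4827 TPM in the non-phagocytic libraries and 5540.3, 5538, 5614 and 5372 TPM in the Treg-phagocytic libraries (log2 fold change 0.27 ± 0.03, adjusted p = 0.000675), and Cd63 (log2 fold change 0.28 ± 0.04, adjusted p = 0.00206) and Ctsl (log2 fold change 0.29 ± 0.04, adjusted p = 0.00314) rose by similar amounts. The lysosomal calcium channel gene Mcoln1 went the other way, at 162, 159, 131 and 170.0 TPM in the non-phagocytic libraries and 70.6, 61.7, 101 and 89.3 TPM in the Treg-phagocytic libraries (log2 fold change -0.91 ± 0.15, adjusted p = 0.00593). With TPM alone the medians of the LXR and lysosome lists were -0.0032 and -0.0092, so their sign depends on the scaling, while Apoe, Fabp4, Plin2, Ctsd, Cd63, Ctsl and Mcoln1 changed sign under none of the alternatives run. The count of lysosomal members that fell was 5 without non-phagocytic library 3 and 1 without non-phagocytic 1, 2 or 4, Ax647-1, Ax647-2 or BV421-1, and the LXR list's 2 falls (Lpcat3 and Npc2) were both lost without non-phagocytic 1, 2 or 4, Ax647-1 or BV421-1.

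Beside Gbp4 and Gbp2, the 12 largest falls of named genes held histone and heat shock genes and genes of no list. Hist1h2bg (chr13:23571396-23572013), a histone H2B gene, was at 51.7, 42.8, 38.4 and 29.6 TPM in the non-phagocytic libraries and 1.32, 4.80, 2.51 and 2.52 TPM in the Treg-phagocytic libraries (log2 fold change -3.46 ± 0.28, adjusted p = 0.000139). Hist2h2be, another H2B gene, was at 28.6, 29.6, 29.1 and 31.4 TPM in the non-phagocytic libraries and 4.74, 9.33, 6.50 and 12.2 TPM in the Treg-phagocytic libraries (log2 fold change -1.76 ± 0.24, adjusted p = 0.00217). Of 70 replication-dependent histone genes in the files, 19 passed the filter, 3 fell and 0 rose, so these falls were not shared by most of the list, and histone copies can share reads. The libraries were of polyadenylated RNA, and the part of that selection in the histone values was not tested. The inducible heat shock protein genes Hspa1a, at 396, 401, 293 and 369 TPM in the non-phagocytic libraries and 48.00, 111, 76.95 and 112 TPM in the Treg-phagocytic libraries (log2 fold change -2.07 ± 0.26, adjusted p = 0.00124), and Hspa1b (log2 fold change -1.97 ± 0.25, adjusted p = 0.00143), which are near-identical copies, fell together. The co-chaperone Dnaja1 (-0.71, adjusted p = 0.00117) and the constitutive Hspa8 (-0.43, adjusted p = 0.00116) also fell, making 4 of 14 heat shock genes lower and 0 higher, with a median of -0.30. Samhd1, a dNTP hydrolase that restricts viral replication, was at 1141, 1151, 967 and 1096 TPM in the non-phagocytic libraries and 206, 289, 256 and 296 TPM in the Treg-phagocytic libraries (log2 fold change -2.01 ± 0.12, adjusted p = 3.58e-05). The 12 largest falls were taken only from genes whose groups did not overlap, so their separation was set by that choice. Leng8 (-1.91), Tspoap1 (-2.16), Sbsn (-2.16), the cytokinesis regulator Racgap1 (-1.80) and the antisense gene Zmiz1os1 (-2.08) completed them. Whether reads were assigned by strand is not given in the sources used here, so Zmiz1os1 cannot be told apart from its sense partner. Hk3, a hexokinase of myeloid cells, fell (log2 fold change -1.10 ± 0.12, adjusted p = 0.000675), and the immediate early factors Klf6 (-1.16, adjusted p = 0.000114) and Klf10 (-0.81, adjusted p = 0.000434) fell while the other members of that list that changed, Junb (0.25), Dusp1 (0.28), Btg2 (0.44) and Ier2 (0.50), were higher. The number of immediate early genes that rose was 4 with all libraries, 2 without non-phagocytic library 1 and 1 without non-phagocytic library 2 or 4, Ax647-1 or BV421-1.

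Classes of RNA differed in how many members fell. Among 108 genes of the provisional transcript class that the annotation calls TEC, 37 fell and 0 rose (median -0.82), and 6 of 22 sense intronic RNAs fell, against 6.32% of all genes tested. Other classes changed less: 14 of 152 long intergenic non-coding RNAs, the class of Malat1 and Neat1, fell and 2 rose (median -0.17). Of 206 antisense genes 16 fell and 1 rose, and of 321 processed pseudogenes 14 fell and 5 rose. The nuclear long non-coding RNA Malat1 was at 642, 688, 609.8 and 671 TPM in the non-phagocytic libraries and 294, 251, 265 and 239 TPM in the Treg-phagocytic libraries (log2 fold change -1.26 ± 0.06, adjusted p = 1.93e-05), and Neat1 fell as well (-0.86, adjusted p = 0.000486). The mitochondrial ribosomal RNAs mt-Rnr1, at 11222, 11628, 10420.0 and 11863 TPM in the non-phagocytic libraries and 2133, 4482, 3379.7 and 5131 TPM in the Treg-phagocytic libraries (log2 fold change -1.60 ± 0.24, adjusted p = 0.00303), and mt-Rnr2 (log2 fold change -1.46 ± 0.22, adjusted p = 0.0032) fell, and Ax647-1 was the lowest library. Malat1, Neat1 and the ribosomal RNAs were picked after their values were seen. Genes that fell had a median genomic span of 28.2 kb and a median level of 39.6 TPM in non-phagocytic libraries, genes that rose 6.49 kb and 174 TPM, and genes not called 20.6 kb and 12.04 TPM. The part of nuclear RNA content, transcript class or RNA quality in the falls above was not tested.

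Rises were small and spread over abundant transcripts of translation. Of 82 cytosolic ribosomal protein genes tested, 59 rose and 0 fell, all 82 fold changes were positive and the median was 0.20. Summed over the list, 181179 to 190325 TPM in non-phagocytic libraries stood against 202277 to 205860 TPM after Treg uptake. Rps3 was at 1290.4, 1264, 1394 and 1267 TPM in the non-phagocytic libraries and 1599, 1549.7, 1494 and 1607 TPM in the Treg-phagocytic libraries (log2 fold change 0.32 ± 0.04, adjusted p = 0.0023), and Rps27a (log2 fold change 0.30 ± 0.04, adjusted p = 0.00137) and Rpl10a (log2 fold change 0.29 ± 0.04, adjusted p = 0.00314) rose alike. With TPM alone 43 rose, with a GC content and length correction 45, and 0 fell in either. Of 78 nuclear-encoded respiratory chain genes, 9 rose and 1 fell (median 0.17). That count was 4 without non-phagocytic library 3 and 5 without non-phagocytic library 1, 2 or 4 or BV421-1, and the single fall was lost without non-phagocytic 1, 2 or 4, Ax647-1, Ax647-2 or BV421-1. Transcripts encoded by mitochondrial DNA, by contrast, had 4 of 13 fall and 0 rise (median -0.15). The cytochrome oxidase gene mt-Co1 was at 11279.5, 11032, 11128 and 11537 TPM in the non-phagocytic libraries and 8185, 8106, 8249 and 8501 TPM in the Treg-phagocytic libraries (log2 fold change -0.39 ± 0.04, adjusted p = 0.000282). mt-Nd4 (-0.25, adjusted p = 0.00247), mt-Atp8 (-0.26, adjusted p = 0.00412) and mt-Cytb (-0.15, adjusted p = 0.0218) fell by less. The GC content and length correction left 1 mitochondrially encoded gene called, and mt-Cytb was not called without non-phagocytic library 1 (0.0635) or 4 (0.0724) or BV421-1 (0.0643).

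Most of the 12 largest rises of named genes were of genes at low levels. Trav3-3, a T cell receptor V segment, was at 0, 0, 1.71 and 0 TPM in the non-phagocytic libraries and 4.62, 8.36, 10.3 and 1.91 TPM in the Treg-phagocytic libraries (log2 fold change 2.36 ± 0.48, adjusted p = 0.0143). Hba-a2, an α-globin gene with a near-identical copy, was at 5.11, 1.86, 4.67 and 4.27 TPM in the non-phagocytic libraries and 16.8, 10.9, 15.6 and 10.1 TPM in the Treg-phagocytic libraries (log2 fold change 1.602 ± 0.27, adjusted p = 0.00539). Tnfrsf9 (4-1BB), a costimulatory receptor of activated T cells, Treg cells and some myeloid cells, was at 2.50, 2.95, 4.31 and 1.92 TPM in the non-phagocytic libraries and 11.8, 12.3, 5.53 and 6.38 TPM in the Treg-phagocytic libraries (log2 fold change 1.36 ± 0.29, adjusted p = 0.0179). Groups that did not overlap were a condition for all 12, and the call of Tnfrsf9 was lost without non-phagocytic library 1 (0.0519) or 4 (0.0554) or Ax647-1 (0.0506). Anp32e, a chaperone of the histone variant H2A.Z, was at 37.7, 21.3, 33.9 and 25.3 against 62.4, 72.8, 43.3 and 47.4 TPM (log2 fold change 0.97 ± 0.21, adjusted p = 0.0186) and was lost without non-phagocytic library 4 (0.0571). Pdlim2, an adaptor that promotes breakdown of nuclear p65, was at 17.04, 24.9, 30.2 and 22.8 TPM in the non-phagocytic libraries and 40.9, 41.1, 48.3 and 42.4 TPM in the Treg-phagocytic libraries (log2 fold change 0.91 ± 0.15, adjusted p = 0.00555) and was called without each library in turn. Gpr174 (1.34), Nckap5l (1.18), Oxsm (1.07), Toe1 (1.04), Rrp9 (0.84), Ikzf5 (0.78) and Nedd4l (0.73) were the rest of these 12. Each of these 7 calls was lost without at least 2 single libraries, of either group for all but Toe1, with adjusted p of 0.0502 to 0.117: Gpr174 without non-phagocytic 1, 2 or 4 or BV421-2, Toe1 without non-phagocytic 1 or 3, Nckap5l without non-phagocytic 2 or 4, Ax647-1, Ax647-2 or BV421-2, Nedd4l without any but non-phagocytic 4 and Ax647-2, Rrp9 without any but BV421-1 and BV421-2, Oxsm without any but BV421-2, and Ikzf5 without any but non-phagocytic 4.

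**Figure D3:**
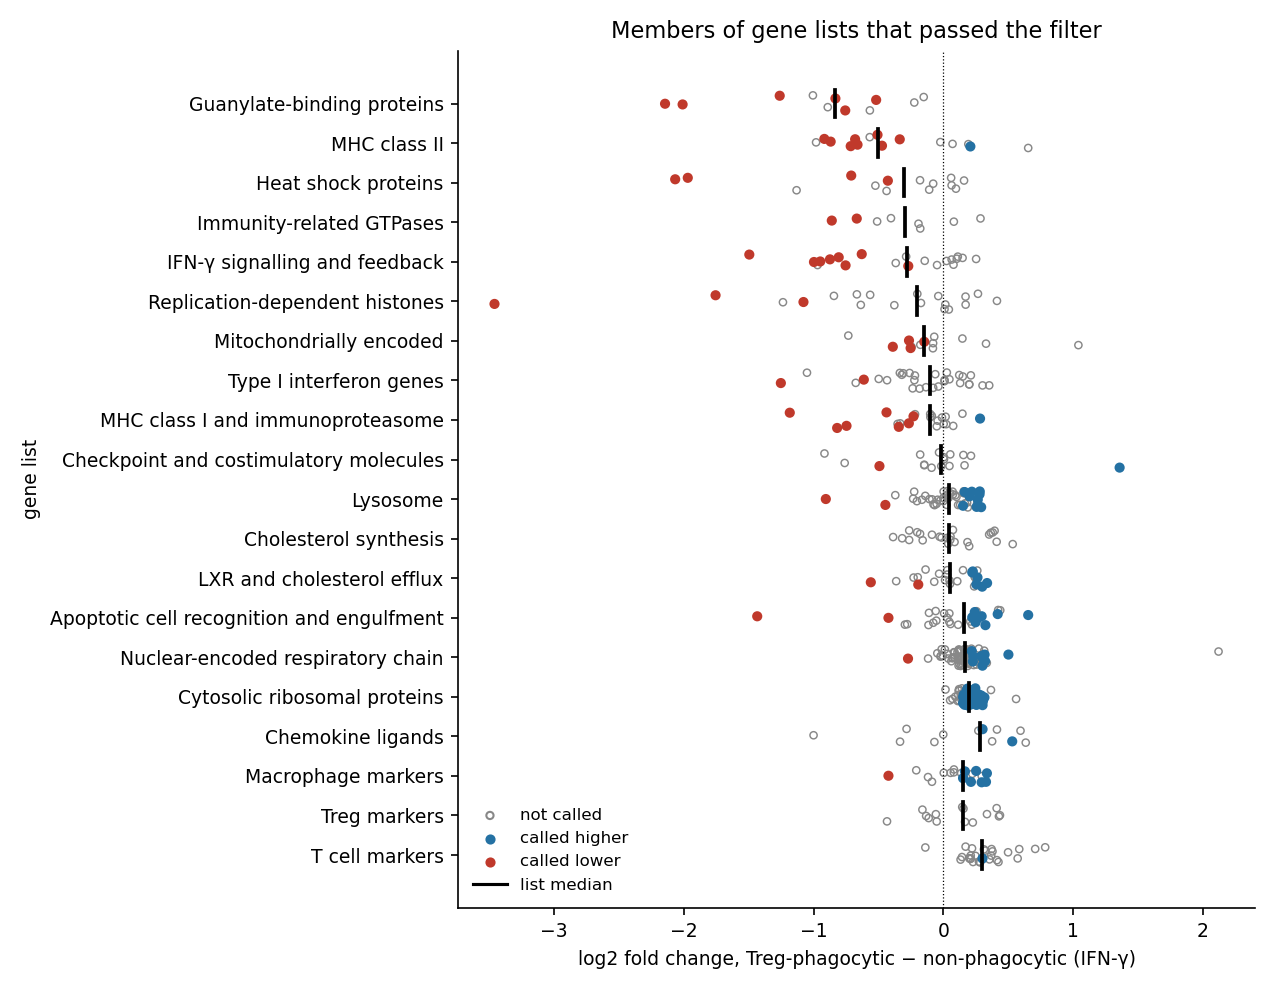
Log2 fold changes (x axis) of the members of 20 gene lists that passed the filter; each circle is a gene, filled where called higher (blue) or lower (red), and black bars are list medians. Guanylate-binding proteins have the lowest median (-0.83), and all 82 ribosomal protein genes lie above 0.

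Of the remaining lists, few members were called. In the unfolded protein and integrated stress response 2 of 17 rose, Hspa5 (the ER chaperone BiP, 0.25, adjusted p = 0.0148) and Sdf2l1 (0.41, adjusted p = 0.0254), and 16 of 17 fold changes were positive (median 0.17). In glycolysis the enzyme genes Aldoa (0.17, adjusted p = 0.0195) and Tpi1 (0.24, adjusted p = 0.0262) rose and Hk3 and Gpi1 (-0.29, adjusted p = 0.0348) fell, of 18 tested. The glycolysis count that rose was 0 without non-phagocytic library 1 or BV421-1, and 1 without non-phagocytic library 3 or 4, Ax647-2 or BV421-2. Of 37 cell cycle genes 1 rose, the mitotic kinase Aurka (1.15, adjusted p = 0.0388), and 1 fell, the centromere histone Cenpa (-0.56, adjusted p = 0.0347). Of 15 NF-κB regulators the subunit gene Rel (-0.72, adjusted p = 0.0119) and the kinase Ikbke (-0.35, adjusted p = 0.036) fell and 0 rose. Among 19 regulatory and alternative activation genes Il10rb (0.33, adjusted p = 0.0417) and the β-glucan receptor Clec7a (0.32, adjusted p = 0.0195) rose, and Mrc1, the mannose receptor, was not called (0.24, adjusted p = 0.213). The ectoenzyme Bst1 was the 1 of 12 purinergic genes that fell (-0.87, adjusted p = 0.0134). Of the genes in this paragraph, calls held without each library in turn for Hspa5, Rel, Bst1 and Hk3. The others were lost without at least 2 single libraries: Aldoa without non-phagocytic 1 or 4 or BV421-1, Tpi1 without non-phagocytic 1 or 3, Ax647-2, BV421-1 or BV421-2, Clec7a without non-phagocytic 1 or 4, Sdf2l1 without any but non-phagocytic 3 and Ax647-1, Cenpa without non-phagocytic 1, 2 or 4 or BV421-2, Gpi1 without any but Ax647-2, Aurka without any but non-phagocytic 4, Ikbke without any but BV421-2, and Il10rb without any but non-phagocytic 1, with adjusted p of 0.05 to 0.113.

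Macrophage markers were abundant in both groups. Of 19 macrophage markers, 7 rose and 1, Mertk, fell (median 0.15), and their summed level was 24349 to 25181 TPM in non-phagocytic and 28046 to 28484 TPM in Treg-phagocytic libraries. Most of that sum, and of its difference between groups, was Lyz2. Lyz2, lysozyme, was at 15156, 14559, 15149 and 15238 TPM in the non-phagocytic libraries and 18393, 17960.5, 18232 and 18039 TPM in the Treg-phagocytic libraries (log2 fold change 0.33 ± 0.03, adjusted p = 0.000123), and Adgre1 (F4/80) also rose (log2 fold change 0.25 ± 0.05, adjusted p = 0.00897). Cd14 (0.34, adjusted p = 0.0159) and Csf1r (0.21, adjusted p = 0.0411) passed by narrow margins: Cd14 was lost without non-phagocytic library 2 (0.0519) and Csf1r without any library but Ax647-1 (0.0558 to 0.102). The number of markers that rose was 2 without non-phagocytic library 2, 3 without non-phagocytic library 3 or 4 or BV421-1, and 4 without non-phagocytic library 1 or BV421-2. Under TPM alone 3 rose and 2 fell.

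T cell transcripts were present in both groups, also in the libraries labelled non-phagocytic. Summed over 28 T cell markers, none of which was at 0 in all 8 libraries, the level was 875, 1061, 1410.4 and 952 TPM in non-phagocytic libraries and 1587, 1125, 1359.7 and 1025 TPM in Treg-phagocytic libraries, so the groups overlapped. Of 27 tested, 26 fold changes were positive, 1 gene rose and 0 fell (median 0.30); the riser, Il7r (0.30, adjusted p = 0.0312), was lost without non-phagocytic libraries 1, 2 or 3, Ax647-2, BV421-1 or BV421-2. The constant region Trac was at 50.4, 63.8, 87.99 and 55.9 TPM in the non-phagocytic libraries and 87.9, 75.5, 68.9 and 52.95 TPM in the Treg-phagocytic libraries, and Cd4 was at 27.4, 25.7, 43.5 and 15.01 TPM in the non-phagocytic libraries and 48.1, 30.5, 40.3 and 63.1 TPM in the Treg-phagocytic libraries (0.78, adjusted p = 0.145). Neither gene separated the groups. Foxp3, the factor that defines Treg cells, was at 14.9, 13.3, 19.97 and 10.9 TPM in the non-phagocytic libraries and 13.4, 10.4, 14.3 and 11.5 TPM in the Treg-phagocytic libraries (log2 fold change -0.16 ± 0.18, adjusted p = 0.648). Il2ra (0.15, adjusted p = 0.724) and Ctla4 (-0.06, adjusted p = 0.95) did not pass the test, 0 of 14 Treg markers tested were called, and the summed Treg marker level was 162 to 235 TPM against 175 to 232 TPM. Bulk libraries cannot tell more cells, or more engulfed material, from more RNA in each. The pan-leukocyte gene Ptprc, which T cells and macrophages both express, fell (log2 fold change -0.44 ± 0.07, adjusted p = 0.00295).

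Summed markers of further cell types were low, apart from cytotoxic and natural killer markers, most of which did not pass the filter. Summed levels in non-phagocytic and Treg-phagocytic libraries were 88.8 to 156 and 87.1 to 139 TPM for the B lineage (0 of 7 tested called), 97.4 to 112 and 88.0 to 99.4 TPM for neutrophils (1 of 6 rose), 11.5 to 30.9 and 21.96 to 29.97 TPM for red cells (1 of 4 rose), 62.8 to 78.1 and 56.2 to 66.5 TPM for dendritic cells (1 of 5 fell), and 11.8 to 18.6 and 5.39 to 10.8 TPM for stromal cells (0 of 3 called). Cytotoxic and natural killer markers summed to 356 to 462 and 297 to 349 TPM, which do not overlap. Of 10 measured, 8 did not pass the filter, so the sum does not describe the list as a whole. The 2 that passed had all Treg-phagocytic libraries below all non-phagocytic ones, as did 11.4% of all genes tested. Of these 2, 1 fell: Klrk1 (NKG2D), at 4.71, 2.93, 1.89 and 3.68 TPM in the non-phagocytic libraries and 0.39, 0, 0.44 and 0 TPM in the Treg-phagocytic libraries (log2 fold change -1.79 ± 0.29, adjusted p = 0.00482). The other was not called (-0.33), and Klrk1, at a few TPM, held little of the sum. The neutrophil gene Mmp8 (0.62, adjusted p = 0.0476) was lost without any 1 of the 8 libraries, and the dendritic gene Clec9a (-1.54, adjusted p = 0.0489) without any but non-phagocytic 4 and Ax647-2. The part of these cells in the results was not tested.

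**Figure D4:**
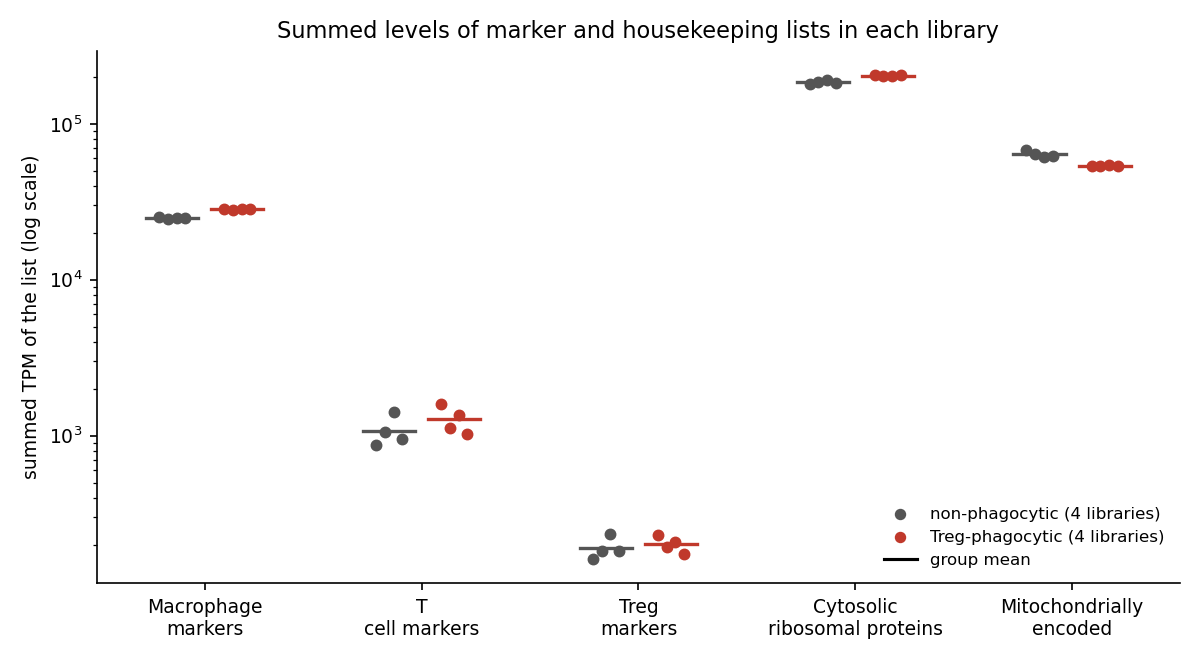
Summed TPM of 5 gene lists in each library on a log axis; points are libraries and lines are group means. T cell and Treg marker sums overlap between the groups, while macrophage and ribosomal protein sums are higher and mitochondrially encoded sums lower in all 4 Treg-phagocytic libraries. The macrophage sum is mostly Lyz2.

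Whether uptake of Treg cells differed from uptake of Tconv cells was tested directly between the phagocytic groups under IFN-γ. Of 11980 genes tested, 1677 passed (14%), 637 higher (5.32%) and 1040 lower (8.68%) in Treg-phagocytic macrophages. The higher calls were 38.0% of these, and 16.8% with TPM not scaled further. Guanylate-binding proteins were lower after Treg than after Tconv uptake in 6 of the 10 members tested there and higher in 0. Gbp4 was at 77.7 ± 19.3 TPM in Tconv-phagocytic and 13.3 ± 1.72 TPM in Treg-phagocytic libraries (SD, n = 4), a difference of -2.34 (adjusted p = 0.00019). Gbp2 was at 200.2 ± 38.2 TPM after Tconv uptake, a difference of -1.56 (adjusted p = 0.000825). Irf1, H2-K1 and Samhd1 were likewise lower after Treg uptake than after Tconv uptake, by -1.11 (adjusted p = 0.00107), -0.92 (adjusted p = 0.000572) and -2.23 (adjusted p = 0.000154). Of 15 class II genes 8 were lower after Treg uptake and 1 was higher, with a median difference of -0.38. H2-Ab1 was at 1403 ± 149.6 TPM after Tconv uptake (-0.52, adjusted p = 0.00938), and Cd74 did not pass (-0.18, adjusted p = 0.12). Apoe (0.28, adjusted p = 0.000643), Ctsd (0.30, adjusted p = 0.00249) and Lyz2 (0.38, adjusted p = 0.000698) were higher after Treg uptake. Rises that did not pass against Tconv uptake included Tnfrsf9 (0.76, adjusted p = 0.105) and Hba-a2 (1.08, adjusted p = 0.123). Malat1 and mt-Rnr1 were also lower after Treg than after Tconv uptake, by -1.44 (adjusted p = 0.00015) and -1.55 (adjusted p = 0.00407). After Tconv uptake they were at 769.6 ± 121.1 and 11453.5 ± 2224.2 TPM (SD, n = 4). The part of transcript class in the differences from Tconv uptake was not tested. The count was 924 without Tconv-phagocytic library BV421-2, 979 without Ax647-1 and 1045 without Ax647-2 of that group, and 0 with only the libraries titled BV421 (1877 at an unadjusted p under 0.05). By library name, that last subset set Treg-phagocytic libraries of Ax647 against Tconv-phagocytic libraries of BV421.

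The change with Treg uptake was also set against that under IL-10, in a fit of 16 libraries with an interaction term. Of 12872 genes, 1236 passed (9.6%): 837 fell more or rose less under IFN-γ (6.5%) and 399 the reverse (3.1%). Among the 1236, 528 were negative under IFN-γ and positive under IL-10, 319 the opposite, 266 negative in both and 118 positive in both; for 5, 1 of the estimates was 0. The log2 change of Gbp4 was -2.14 under IFN-γ and 0.88 under IL-10 (difference -3.02 ± 0.19, adjusted p = 1.83e-07). That of Gbp2 was -1.99 under IFN-γ and 0.55 under IL-10 (difference -2.54 ± 0.19, adjusted p = 6.48e-07). Under IL-10 these interferon genes were far lower to begin with: Gbp4 was at 0.738 ± 0.0862 TPM in non-phagocytic libraries there (SD, n = 4). Of 15 class II genes tested, 9 passed with a more negative change under IFN-γ, 1 with a more positive one and 5 did not pass. H2-Aa and H2-Ab1 were of opposite sign under the 2 cytokines, H2-Aa with -0.45 under IFN-γ and 0.60 under IL-10 (difference -1.05 ± 0.07, adjusted p = 1.83e-07) and H2-Ab1 with -0.66 under IFN-γ and 0.38 under IL-10 (difference -1.04 ± 0.10, adjusted p = 9.52e-06). They were at 637 ± 7.93 TPM and 714 ± 25.9 TPM in IL-10 non-phagocytic libraries.

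The TAM receptors also separated the cytokines. Mertk was at -0.41 under IFN-γ and 0.49 under IL-10 (difference -0.90 ± 0.10, adjusted p = 4.12e-05), and Axl, which interferon and inflammatory signals induce, at -0.26 under IFN-γ and 1.28 under IL-10 (difference -1.55 ± 0.17, adjusted p = 2.07e-05), as log2 changes. Klf6 and Irgm1 were also among the list genes of opposite sign with the smallest adjusted p, Klf6 with -1.14 under IFN-γ and 0.13 under IL-10 (difference -1.27 ± 0.09, adjusted p = 6.48e-07) and Irgm1 with -0.84 under IFN-γ and 0.19 under IL-10 (difference -1.03 ± 0.09, adjusted p = 4.52e-06). In the other direction, Ctsl was at 0.31 under IFN-γ and -0.36 under IL-10 (difference 0.67 ± 0.06, adjusted p = 5.96e-06), and Itgav at 0.67 under IFN-γ and -0.19 under IL-10 (difference 0.86 ± 0.13, adjusted p = 0.000338). Apoe was positive under both cytokines, at 0.32 under IFN-γ and 0.46 under IL-10 (difference -0.14 ± 0.06, adjusted p = 0.15), and its change was not shown to differ. T cell marker sums were 231 to 255 TPM in IL-10 non-phagocytic and 397 to 443 TPM in IL-10 Treg-phagocytic libraries, which do not overlap, unlike under IFN-γ. Relative to the deepest of all 28 libraries, depth was 11.5% to 22.3% in the 8 IFN-γ libraries and 49.4% to 81.0% in the 8 IL-10 libraries, so low genes were less precise under IFN-γ. In non-phagocytic libraries under IFN-γ and IL-10, mt-Rnr1 was at 11283 and 241 TPM, Malat1 at 653 and 543 TPM and Neat1 at 571 and 1136 TPM. The log2 change of mt-Rnr1 was -1.58 under IFN-γ and 0.68 under IL-10 (difference -2.26 ± 0.27, adjusted p = 4.85e-05). The part of transcript class in the differences between cytokines was not tested.

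**Figure D5:**
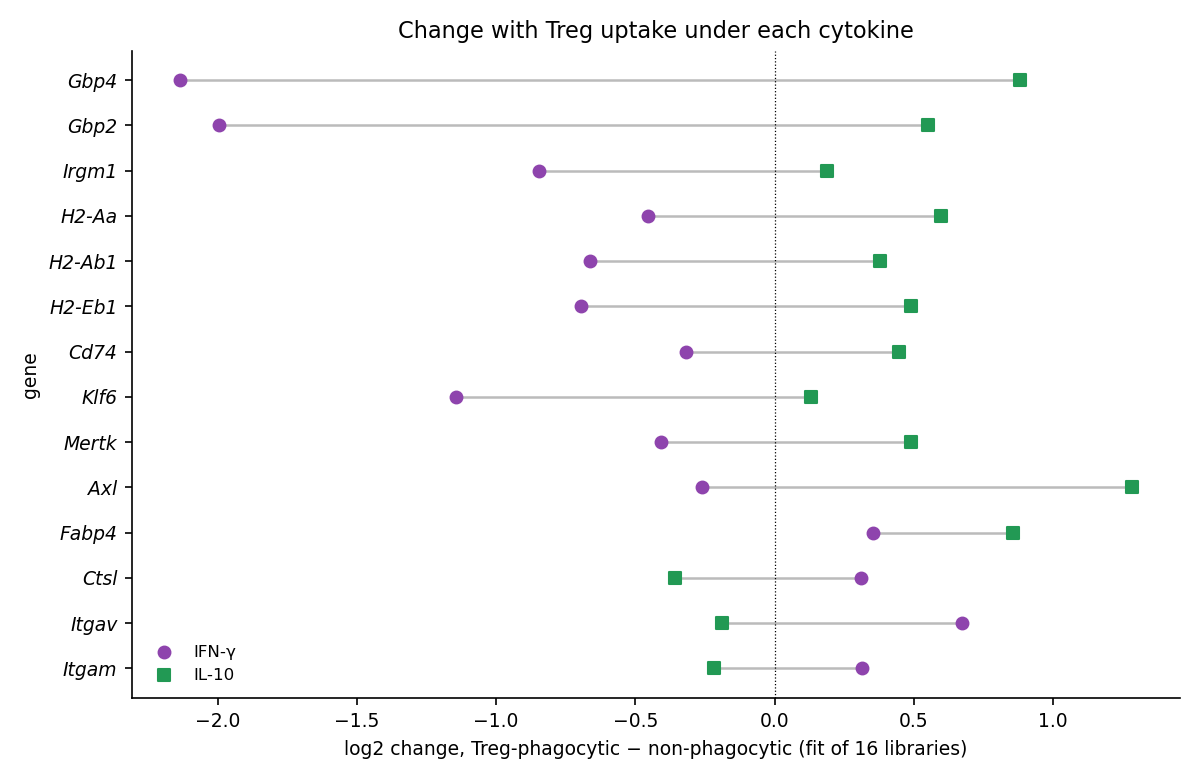
Log2 change with Treg uptake (x axis) of 14 genes under IFN-γ (circles) and IL-10 (squares), from the fit of 16 libraries; grey lines join a gene's estimates and no error is drawn. Gbp4, Gbp2, Irgm1, H2-Aa, H2-Ab1, H2-Eb1 and Cd74 lie below 0 under IFN-γ and above 0 under IL-10.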

How the data were processed

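Polyadenylated RNA of sorted mouse macrophages was sequenced as directional libraries, per the labels' protocols. The deposited files give 1 TPM value per gene and library, per the file headers. The submitters' processing notes name STAR, RSEM and the build mm10; their roles and versions are not given in the sources used here. TPM sums to the same total in each library, so a rise of abundant transcripts lowers all others, and depth was read only from steps in the values of 14527 genes with 1 transcript of 500 to 2000 nt (87.6% to 91.2% of values lay within 0.15 reads of a whole read). The size of 1 read was chosen among candidates for a high share. The 30% that chance gives holds only for a size set in advance, so it does not test the depth.

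Values were divided by an unweighted trimmed-mean factor (30% of ratios and 5% of levels trimmed), 1 was added and log2 taken. Genes reaching 1 TPM in 4 or more of the libraries fitted were tested with limma 3.58.1 in R 4.3.3 (moderated test with trend, two-sided, Benjamini-Hochberg over all genes tested, called at an adjusted p under 0.05). The Treg comparison used 8 libraries, that with Tconv uptake 8, and the IFN-γ against IL-10 interaction 16. On simulated data of 11605 genes for the Treg comparison, 26 of 100 genes changed by 0.5 and 64 of 100 changed by 1 on the log2 scale were called, with 5 unchanged genes. Symbols and genomic coordinates came from GENCODE vM21 (GRCm38, the mm10 assembly; 55141 of 55487 identifiers matched), and promoter windows from RefSeq (GRCm38.p6).

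Named genes were the 12 largest rises and 12 largest falls called with groups that did not overlap, a mean of at least 5 TPM in the higher group and no clone, Gm, Rik or pseudogene name; up to 4 called members with the largest change in each of 34 gene lists; 36 genes of interest whatever their result, some of which are not reported here; and up to 6 list genes of opposite sign in the interaction. Members printed as fold changes beside these complete a list's count. Members and lists were chosen with earlier results of these data known. Scaling, pseudocount, filter, libraries fitted, variance weights, minimum change, replicate block, GC content and length correction, dye and each library in turn were varied.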

Additional observations from a re-analysis of the deposited data

Results flagged for a closer look

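A library stood apart from the other 3 of its group by Dixon's gap in 15 of the 244 groups of 4 libraries looked at for the named genes; chance alone flags about 1 in 20 such groups. Among non-phagocytic libraries, the library far from the rest held Trav3-3 at 1.71 TPM in non-phagocytic library 3 (0 in the others), Tspoap1 at 51.7 TPM in non-phagocytic library 2 (35.1 to 37.6 in the others), Nlrc5 at 38.3 TPM in non-phagocytic library 3 (65.4 to 68.3 in the others) and Hist2h4 at 2.45 TPM in non-phagocytic library 2 (1.21 to 1.22 in the others). Likewise set apart were Lyz2 at 14559 TPM in non-phagocytic library 2 (15149 to 15238 in the others), Socs1 at 6.98 TPM in non-phagocytic library 3 (3.82 to 4.18 in the others), Mfge8 at 227 TPM in non-phagocytic library 2 (205 to 207 in the others) and Abca1 at 15.1 TPM in non-phagocytic library 4 (12.2 in the others). Likewise set apart was Ctla4 at 15.1 TPM in non-phagocytic library 3 (4.94 to 5.50 in the others). Among Treg-phagocytic libraries, the library far from the rest held Toe1 at 14.6 TPM in Treg-phagocytic library Ax647-2 (9.56 to 10.2 in the others), Gbp9 at 5.74 TPM in Treg-phagocytic library BV421-2 (7.85 to 8.18 in the others), Btg2 at 31.4 TPM in Treg-phagocytic library BV421-2 (39.6 to 40.8 in the others) and Sdf2l1 at 116 TPM in Treg-phagocytic library BV421-1 (103 to 104 in the others). Likewise set apart were mt-Nd4 at 1766 TPM in Treg-phagocytic library Ax647-1 (1704 to 1713 in the others) and mt-Cytb at 4157 TPM in Treg-phagocytic library BV421-2 (4084 to 4086 in the others). 

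For 81 of the 122 named genes the change with Treg uptake under IFN-γ differed from that under IL-10. The test was the interaction (limma, 16 libraries, adjusted p of 1.83e-07 to 0.0464), which 9.6% of all genes tested passed. Most named genes were chosen because they were called in the same IFN-γ libraries, and some by the interaction itself. A high share among them was therefore built in by that choice. The values that follow are differences of log2 changes, IFN-γ minus IL-10, and the part of transcript class in them was not tested. Interferon response and antigen presentation genes with a more negative change under IFN-γ were Gbp4 -3.02, Gbp2 -2.54, Gbp9 -1.65, Stat2 -1.39, Gbp8 -1.21, H2-Oa -1.20, H2-Eb1 -1.18, Iigp1 -1.14, H2-Ob -1.06, H2-Aa -1.05, H2-Ab1 -1.04, Irgm1 -1.03, Ciita -0.995, Nlrc5 -0.96, Irf1 -0.94, Herc6 -0.93, H2-K1 -0.86, Cd74 -0.77, H2-Q4 -0.74, Oas3 -0.69, Stat3 -0.67, Tap1 -0.51 and Cd274 -0.49. Genes of uptake, lipid handling, the lysosome, macrophage identity, the regulatory list and the chemokine ligands with a more negative change under IFN-γ were Axl -1.55, Cd300lf -1.42, Mcoln1 -0.93, Mertk -0.90, Ctsc -0.62, Lpcat3 -0.58, Fabp4 -0.50 and Vegfa -0.39. Those with a more positive change were Lyz2 0.11, Ctsd 0.22, Ccl6 0.23, Adgre1 0.34, Plin2 0.35, Mfge8 0.38, Csf1r 0.38, Cd14 0.42, Cd36 0.46, Itgam 0.53, Ctsl 0.67 and Itgav 0.86. Stress, early response and NF-κB genes with a more negative change under IFN-γ were Hspa1b -2.70, Hspa1a -2.52, Klf6 -1.27, Dnaja1 -0.85, Klf10 -0.78, Rel -0.73 and Hspa8 -0.55. Those with a more positive change were Hspa5 0.37, Sdf2l1 0.41 and Ier2 0.48. Genes of histones, the cell cycle, metabolism, mitochondria and ribosomes with a more negative change under IFN-γ were Hist1h2bg -3.16, Hist2h2be -1.72, Hist2h4 -1.17, Hk3 -1.08, Cenpa -0.72, mt-Co1 -0.41, mt-Atp8 -0.40 and mt-Nd4 -0.22. Those with a more positive change were Aldoa 0.13, Rps3 0.29, Rpl10a 0.33, Cox5b 0.57 and Aurka 1.38. Markers of other cells with a more negative change under IFN-γ were Klrk1 -1.82 and Trac -1.18. Mmp8, 0.90, had a more positive change. Genes of no list with a more negative change under IFN-γ were Zmiz1os1 -2.32, Tspoap1 -2.24, Sbsn -2.18, Racgap1 -2.10, Samhd1 -2.06, Leng8 -1.64 and Ptprc -0.47. Those with a more positive change were Pdlim2 0.75, Anp32e 0.88, Rrp9 0.94, Toe1 1.07 and Oxsm 1.34.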

How the results depend on the processing

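The main comparison called 1078 genes. In 1 model of all 28 libraries it called 3873 (50.9% higher), 1071 of them shared. It called 520 with libraries titled Ax647 only, 548 with BV421 only (fewer samples in both) and 261 with a change of at least 1. Leaving out 1 library gave 620 to 887. The labels do not say whether replicate numbers pair these samples. Deviations from the group mean, over genes, correlated between same-numbered libraries by file name at -0.057, -0.0208, -0.0112 and 0.0113. Between libraries of the same title number they correlated at -0.057, -0.0208, 0.0197 and 0.0295. Such values cannot show that no pairing exists. A replicate block by title number called 319, by file number 669, and by file number with GC content and length correction 528. No Treg-phagocytic title carries the number 3 or 4, so non-phagocytic libraries 3 and 4 stood alone in the title block. They then add nothing to the estimate, and the count of 319 rests on fewer non-phagocytic libraries. It cannot be read as an effect of pairing. The Treg against Tconv count of 1677 was 4440 in the model of all libraries, 230 with libraries titled Ax647 only, 0 with those titled BV421 only (1877 at an unadjusted p under 0.05), 360 with a change of at least 1, and 924 to 1527 without 1 library. Titles and library names give the same dye for Tconv-phagocytic libraries but opposite dyes for Treg-phagocytic ones. By library name, each dye subset thus set unlike dyes against each other, and dye and T cell type could not be told apart. In the interaction fit, too, title numbers 3 and 4 held non-phagocytic libraries only, under either cytokine. The interaction count of 1236 was 477 with a replicate block by title number, 708 with Ax647 only, 318 with a change of at least 1, and 906 to 1432 without 1 library. The cause was not tested, apart from fewer samples or fewer genes allowed. All other alternatives for these 3 counts stayed within 1.5 times. Between dyes within Treg-phagocytic libraries limma called 0 of 10423 genes, 469 at an unadjusted p under 0.05, and 0 in each of the 7 alternatives run; leaving out libraries was not run there.

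Of the named genes tested, 102 were called; 39 of these were called under every alternative run and 63 were lost under at least 1. Signs turned only in uncalled genes. Socs1 ranged from -0.066 to 0.23 without 1 library, being below 0 without BV421-1, Ax647-1 (-0.010) or non-phagocytic 4 (-0.0065). Cxcl9 was at 0.048 with Ax647 only. Cxcl10 was at 0.030 with the title block and 0.11 with Ax647 only, and ranged from -0.28 to 0.19 without 1 library, being above 0 without BV421-1, non-phagocytic 3 (0.15), non-phagocytic 1 (0.04) or Ax647-2 (0.01). Ctla4 was at 0.30 with the title block and 0.36 with Ax647 only, and ranged from -0.36 to 0.27 without 1 library, being above 0 without non-phagocytic 3, BV421-2 (0.13) or BV421-1 (0.03). Tnf was at -0.0088 with BV421 only and ranged from -0.092 to 0.18, being below 0 without non-phagocytic 2. With TPM alone the medians of the inflammatory, cholesterol synthesis and NF-κB lists were -0.04, -0.0051 and -0.0019, and with GC content and length correction those of the checkpoint and cell cycle lists were 0.0011 and 0.05, opposite in sign to the main fit. Depth in the shallowest IFN-γ library limits low genes most, and levels near 1 TPM were not precise.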
